A study of Mus musculus with 8 samples.

Results

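The genes described here are the insulin-like growth factor 1 (IGF1) axis in neonatal mouse skeletal progenitors: the ligand gene Igf1, the receptor genes Igf1r and Insr, and the binding protein genes Igfbp2, Igfbp3, Igfbp4, Igfbp5, Igfbp6 and Igfbp7. They were taken by gene symbol, which gave 9 of the 55471 entries of the deposited count table, and all 9 were among the 22153 genes that passed the filter on low counts. The study sequenced bulk RNA from femurs of mouse pups aged 3 to 5 days, from sorted skeletal stem cells (SSC) and sorted bone cartilage stromal progenitors (BCSP), in wild type (WT) and Tet1 knockout (KO). Tet1 encodes a dioxygenase that oxidises 5-methylcytosine in DNA. Each of the 4 groups (WT SSC, KO SSC, WT BCSP and KO BCSP) has 2 libraries, 1 from a round numbered 1 and 1 from a round numbered 2, called library 1 and library 2 below. All 8 libraries carry the strain name B6;129S4-Tet1tm1.1Jae/J, WT included. The labels name no driver, Cre or treatment, nor do they tell which libraries came from separate animals, within a group or between SSC and BCSP of a round, so p-values measure only the spread between these samples.

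IGF1 is a secreted growth factor that binds a receptor tyrosine kinase, encoded by Igf1r, and signals through insulin receptor substrates to the PI3K and AKT arm. In the growth plate it acts together with circulating growth hormone, locally and through the blood, to drive chondrocyte enlargement and the lengthening of bones. The binding proteins hold IGFs in the circulation and in the matrix, and several can restrain or prolong IGF action depending on where they sit and which proteases cut them.

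The library totals ran from 104782544 to 168004119 counts, and 1 CPM (counts scaled to a common library size, with TMM factors) stood for 110.7 to 143.4 counts. Levels of the 9 genes are compared with each other as CPM per kb of exon, and between libraries as CPM. Sox9 and Acan, chondrocyte markers, were at 1095 to 1378 CPM and 6796 to 10265 CPM over the 8 libraries. Col2a1, of the same marker list, was at 234839 to 324253 CPM, a large part of each library. Eng, which encodes the sort antigen CD105, was at 2.53 to 3.89 CPM in SSC and 25.7 to 50.5 CPM in BCSP. It was the only 1 of 7 listed sort marker genes called between the cell types. Cd200, of the same list, overlapped, at 24.2 to 49.7 CPM in SSC and 28.6 to 67.2 CPM in BCSP. Ptprc, a blood cell marker that the sort would be meant to remove, was at 0 to 1.08 CPM. Tet1 itself was at 15.6 and 19.6 CPM in WT SSC, 7.26 and 11.8 CPM in KO SSC, 21.6 and 10.98 CPM in WT BCSP, and 10.8 and 11.97 CPM in KO BCSP, so that WT BCSP library 2 lay inside the KO range. Both BCSP libraries of round 2 stood apart on gene length: the Spearman correlation, across genes, of a gene's deviation in the library with its exon length was -0.51 in WT BCSP library 2 and 0.36 in KO BCSP library 2, against -0.24 to 0.23 in the other 6.

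The 9 genes lie on 7 chromosomes of the mouse build mm10. Igf1 spans chr10:87858265-87937042 on the plus strand. Igf1r spans chr7:67952827-68233668 (plus) and Insr chr8:3122061-3279617 (minus). Igfbp2 (chr1:72824503-72852474, plus) and Igfbp5 (chr1:72857932-72874884, minus) converge with 5.46 kb between their annotated ends and 0 genes between them. Igfbp3 lies at chr11:7206086-7213923 (minus), 3.54 kb from Igfbp1. Igfbp4 is on the same chromosome at chr11:99041244-99054392 (plus). Igfbp6 lies at chr15:102144362-102149511 (plus) and Igfbp7 at chr5:77349240-77408041 (minus). An annotated antisense gene, Igf1os, overlaps Igf1 by 5.12 kb on the other strand and held 0 to 14 counts per library.

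The upstream sequences of 3 members are shown because of the values described below: Igfbp3 and Igfbp4 were called between the rounds, and Igfbp5, which was not called, had the lowest p of the 9 genes between the cell types. Each is written 5′ to 3′ on the gene's own strand, from the RefSeq promoter window on GRCm38.p6, and ends just before the annotated gene start. CG dinucleotides, the sites where mammalian DNA is methylated, are in capitals. Igfbp3 is at chr11:7213924-7214173 (minus), Igfbp4 at chr11:99040994-99041243 (plus) and Igfbp5 at chr1:72874885-72875115 (minus).
Igfbp3: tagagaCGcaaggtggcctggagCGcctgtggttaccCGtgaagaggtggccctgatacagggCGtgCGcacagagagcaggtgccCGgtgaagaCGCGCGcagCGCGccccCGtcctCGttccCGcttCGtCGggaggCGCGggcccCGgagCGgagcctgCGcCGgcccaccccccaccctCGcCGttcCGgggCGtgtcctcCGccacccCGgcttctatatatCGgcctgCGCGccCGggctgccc
Igfbp4: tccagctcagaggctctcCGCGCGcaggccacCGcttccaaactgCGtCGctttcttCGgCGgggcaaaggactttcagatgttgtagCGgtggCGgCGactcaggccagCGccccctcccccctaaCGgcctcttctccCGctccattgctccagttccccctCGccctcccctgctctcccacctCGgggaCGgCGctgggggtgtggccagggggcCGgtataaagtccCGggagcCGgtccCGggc
Igfbp5: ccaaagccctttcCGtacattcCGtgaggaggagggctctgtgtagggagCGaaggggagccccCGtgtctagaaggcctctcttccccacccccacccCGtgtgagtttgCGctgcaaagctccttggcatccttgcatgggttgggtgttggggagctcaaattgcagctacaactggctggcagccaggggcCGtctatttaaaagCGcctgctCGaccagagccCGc

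RefSeq windows of 300 bases (250 before the start and 50 after) were found for 8 of the 9 genes, all but Insr. Their CG counts spanned much of the range of all 32851 such windows, whose median was 7. Igf1r had 48, a count that 1.22% of windows reached, Igfbp3 had 37 (5.58%), Igfbp7 33 (8.56%) and Igfbp4 27 (15.5%). At the other end, Igfbp5 had 10 (43.5% of windows), Igfbp6 8 (48.6%) and Igf1 6 (56.4%). The Igf1 window lies inside the span of the gene given above, and all 250 of its upstream bases are annotated exon. Igfbp2 has 2 windows, with 18 and 14. The letters TATAAA, searched on both strands, occurred once each in the windows of Igfbp4 and Igfbp6 and in none of the other members' windows, against 13.6% of all windows. DNA methylation was not measured in the data analysed here, so these counts describe sequence only.

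Per exon length the binding protein Igfbp7 was far above the rest of the axis and the ligand Igf1 was at the bottom. Igfbp7, which is also known as a matrix protein with low affinity for IGFs, averaged 233.6 ± 34.0 CPM per kb (SD, n = 8 libraries) and stood at the 99.4th percentile of the tested genes. Igfbp4, which is cleaved by the protease PAPP-A, followed at 19.8 ± 7.75 CPM per kb and was above Igfbp5 in 8 of 8 libraries. Igfbp5, a matrix-bound binding protein, averaged 7.08 ± 2.83 CPM per kb and Igf1r 6.53 ± 1.42 CPM per kb. These neighbours in the order cannot be separated, since Igfbp5 was the higher in 4 of 8 libraries. Insr, the insulin receptor, averaged 4.43 ± 0.825 CPM per kb and was below Igf1r in 8 of 8.

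Igfbp3, the main carrier of IGFs in blood, averaged 1.94 ± 1.12 CPM per kb. Igfbp6, which prefers IGF2 as its ligand, averaged 1.26 ± 0.379 CPM per kb and was below Igfbp3 in 6 of 8 libraries. At the low end, Igfbp2 averaged 0.457 ± 0.197 CPM per kb and Igf1 0.311 ± 0.115 CPM per kb, with Igf1 the lower in 7 of 8. Igf1 transcripts were thus present at 228 to 616 counts a library, near the 38.0th percentile of tested genes. The 6 binding protein genes together took 0.0317% to 0.0498% of a library's counts.

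**Figure D1:**
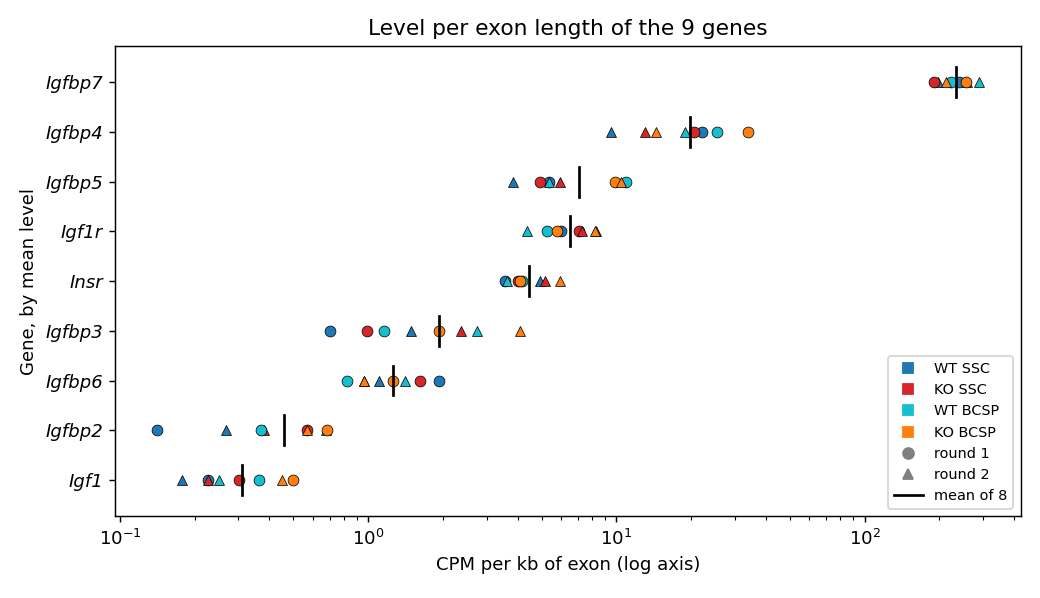
Level of each gene in CPM per kb of exon (log axis) in the 8 libraries, coloured by group, with circles for round 1, triangles for round 2 and a bar at the mean of all 8. Igfbp7 lies above every other gene in each library, while Igfbp5 and Igf1r overlap and Igf1 has the lowest mean, 0.311 CPM per kb.

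Igf1 was somewhat higher in KO than in WT in 4 of 4 pairs of the same cell type and round, and higher in BCSP than in SSC, but neither difference passed the test. It was at 2.25 and 1.76 CPM in WT SSC libraries 1 and 2, 2.98 and 2.25 CPM in KO SSC, 3.60 and 2.48 CPM in WT BCSP, and 4.92 and 4.44 CPM in KO BCSP. The KO libraries were both above the WT libraries in BCSP, whereas in SSC the lower KO library and the higher WT library were nearly equal. Over both cell types the log2 fold change of KO against WT was 0.50 ± 0.25 (SE), with an edgeR adjusted p of 0.636. The KO and WT libraries set side by side, here and below, share a round number, which was not taken to pair them. Between the cell types the BCSP libraries were higher by 1.41 to 1.98-fold in the 4 pairs of the same genotype and round, and the ranges of SSC and BCSP overlapped. The log2 fold change of SSC against BCSP was -0.72 ± 0.25, with an edgeR adjusted p of 1. In these bulk samples, fewer cells of a type and less RNA per cell cannot be told apart.

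Macrophages are a known source of Igf1, and the list of macrophage and osteoclast markers gave mixed levels. Adgre1, C1qa and C1qb were at 0 to 0.114 CPM, Mrc1 at 0.0798 to 0.533 CPM and Csf1r at 0.122 to 1.27 CPM. Cd68 was at 1.39 to 3.49 CPM, Acp5 at 1.28 to 2.72 CPM, Lyz2 at 0.857 to 12.1 CPM, Cd14 at 7.26 to 16.4 CPM and Ctsk, the cathepsin K gene, at 35.1 to 63.9 CPM. The summed level of all 10 genes, most of it Ctsk, was 55.9 to 67.4 CPM in WT SSC and 58.9 to 65.1 CPM in KO SSC. The BCSP libraries had 69.7 to 86.9 CPM in WT and 55.4 to 88.7 CPM in KO. None of the 8 tested genes of the list passed the test for genotype or cell type, and the part of these cells in the level of Igf1 was not tested.

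The summed levels of some other marker lists differed between the groups in the direction of Igf1, which did not hold for each gene of a list. The marrow stromal list (Cxcl12, Lepr and Adipoq) summed to 4.74 to 5.25 CPM in WT SSC, 6.56 to 8.70 CPM in KO SSC, 7.24 to 8.25 CPM in WT BCSP and 14.97 to 16.5 CPM in KO BCSP. That sum was mostly Cxcl12, a chemokine gene of marrow stromal cells, whose log2 fold change was 0.96 for KO against WT and -1.05 for SSC against BCSP (edgeR adjusted p of 0.150 and 0.215). Adipoq was at 0 in 3 libraries and at most 0.558 CPM, and Lepr was at 0.349 to 1.26 CPM. Between cell types these genes did not follow Cxcl12: the log2 fold changes of SSC against BCSP were 0.22 for Adipoq and 0.44 for Lepr. For KO against WT they were -0.99 for Adipoq and 0.27 for Lepr. The 5 genes of the tendon and fibrous tissue list summed to 14.4 to 17.3 CPM in WT SSC, 24.6 to 25.2 CPM in KO SSC, 22.1 to 32.7 CPM in WT BCSP and 32.6 to 33.6 CPM in KO BCSP. Some sums went against Igf1. The pericyte and smooth muscle list summed to 1096 to 1219 CPM in SSC and 826 to 998 CPM in BCSP, with 3 of 5 genes higher in SSC. The skeletal muscle list summed to 5.01 to 17.7 CPM in WT and 1.69 to 4.83 CPM in KO, although 3 of its 4 tested genes were above 0 in KO. No gene of these lists was called for genotype or cell type, and their part in the level of Igf1 was not tested.

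Igf1r and Insr gave no call between genotypes or cell types. Igf1r was at 100.7 and 139.7 CPM in WT SSC, 118.5 and 122.0 CPM in KO SSC, 88.3 and 73.5 CPM in WT BCSP, and 96.6 and 138.3 CPM in KO BCSP. Insr was at 48.8 and 67.5 CPM in WT SSC, 55.3 and 71.1 CPM in KO SSC, 57.2 and 49.8 CPM in WT BCSP, and 56.3 and 81.2 CPM in KO BCSP. For both receptors WT BCSP library 2 was low and KO BCSP library 2 high, the 2 libraries that also stood apart on gene length. Igf1r and Insr have the greatest total exon length of the 9 genes (16.79 and 13.75 kb). In BCSP the log2 fold change of KO against WT was 0.54 ± 0.26 for Igf1r and 0.36 ± 0.26 for Insr, with edgeR adjusted p of 0.686 and 0.702. An alternative chosen after seeing the data left out both BCSP libraries of round 2, so that WT and KO BCSP kept library 1 only. It gave 0.13 for Igf1r and -0.02 for Insr. A fit with an exon length offset kept all libraries and gave 0.20 ± 0.20 for Igf1r in BCSP (edgeR adjusted p of 0.823). With the round as a block added, the value was 0.20 ± 0.17. Insr kept its direction under the offset, and neither receptor was called. The difference between the values with and without the offset was not itself tested. The ratio of Igf1r to Insr per exon length, which compares the receptors inside each library, was 1.40 to 1.76 in SSC and 1.21 to 1.41 in BCSP, ranges that meet at their edges.

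**Figure D2:**
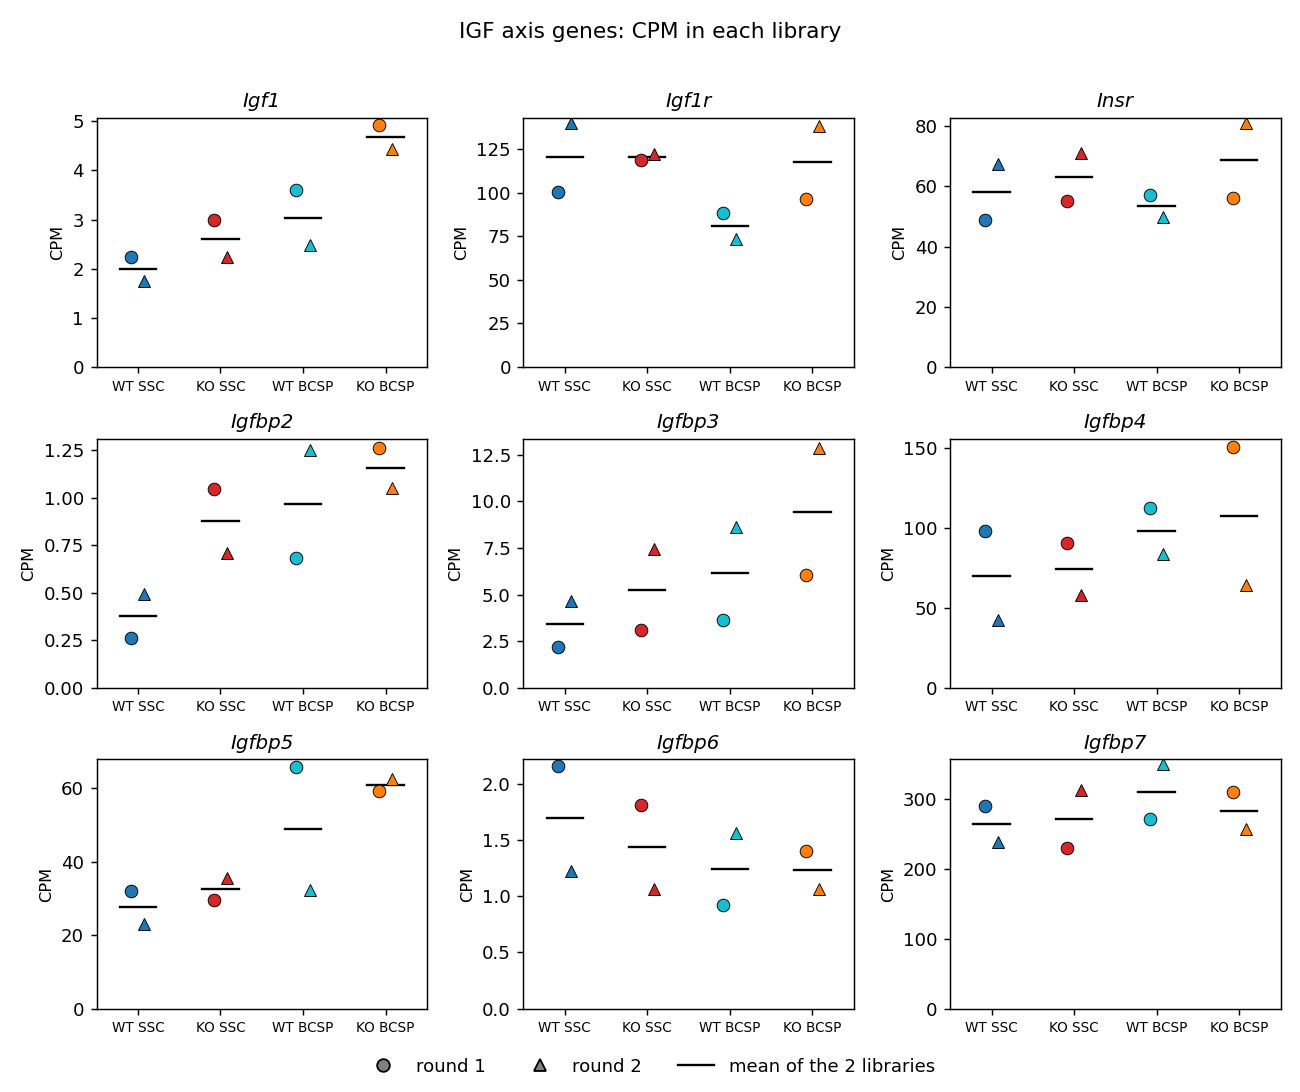
CPM of each of the 9 genes (linear axes from 0, one panel per gene) in WT SSC, KO SSC, WT BCSP and KO BCSP, with circles for round 1, triangles for round 2 and a line at the mean of the 2 libraries. Igfbp3 is higher in round 2 in all 4 groups, reaching 12.8 CPM in KO BCSP, and Igfbp4 is lower in round 2 in all 4.

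Igfbp3 separated the libraries by round more than by genotype or cell type. It was at 2.20 and 4.67 CPM in WT SSC libraries 1 and 2, 3.09 and 7.43 CPM in KO SSC, 3.64 and 8.62 CPM in WT BCSP, and 6.06 and 12.8 CPM in KO BCSP. Library 2 was higher in every group, by 2.12 to 2.41-fold, although the ranges of the rounds (2.20 to 6.06 and 4.67 to 12.8 CPM) overlapped. The log2 fold change of round 2 against round 1 was 1.17 ± 0.19, and Igfbp3 rose with an edgeR adjusted p of 0.0057. Inside each round, the order of the 4 groups was the same: WT SSC lowest, then KO SSC, WT BCSP and KO BCSP.

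Within pairs of the same round, Igfbp3 was higher in KO than in WT by 1.40 to 1.67-fold in 4 of 4 pairs and higher in BCSP than in SSC by 1.65 to 1.96-fold in 4 of 4. Neither difference passed the test over all genes. The log2 fold change was 0.62 ± 0.37 for KO against WT (edgeR adjusted p of 0.664) and -0.84 ± 0.37 for SSC against BCSP (edgeR adjusted p of 1). This fit had no round term, so the shift of Igfbp3 between rounds counted as spread between libraries. Of 17 alternatives, which include the round as a block, 0 called either difference. Igfbp4 went the other way between rounds. It was at 97.8 and 42.0 CPM in WT SSC, 90.4 and 57.7 CPM in KO SSC, 112.5 and 83.7 CPM in WT BCSP, and 150.2 and 64.0 CPM in KO BCSP, so that all round 1 libraries were above all round 2 libraries. Its log2 fold change of round 2 against round 1 was -0.88 ± 0.17, and Igfbp4 fell with an edgeR adjusted p of 0.0174. Without WT SSC library 1 or without WT SSC library 2, the call was lost (log2 fold change -0.77 in both). Either omission takes WT SSC out of the round estimate, so these are in effect the same estimate.

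Of the 9 genes, 2 were called between rounds, 1 in each direction, in a comparison that called 1.76% of all tested genes (243 higher and 147 lower in round 2). Igfbp3 alone was higher in round 2 in 4 of 4 groups, as were 11% of tested genes. Igfbp4 and Igf1 were lower in 4 of 4, as were 8.83% of tested genes. The round 2 to round 1 ratio of Igf1 was 0.687 to 0.903. Igf1r and Insr were not called with all libraries (log2 fold changes 0.19 ± 0.17 and 0.29 ± 0.16). Leaving out either WT BCSP library takes that whole group out of the round estimate, since a lone library is fitted by its own group mean. The values for Igf1r and Insr were 0.34 and 0.45 without WT BCSP library 1, and 0.35 and 0.46 without WT BCSP library 2. These are in effect the same estimate.

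Markers of other cells moved with the round as well. The fold changes of all 5 osteoblast genes and all 3 hypertrophic chondrocyte genes were below 0, and 3 and 1 of them were called lower in round 2. Ibsp, a bone matrix gene, was at 35.8 to 50.4 CPM in round 1 and 7.53 to 17.7 CPM in round 2. Alpl, the tissue-nonspecific alkaline phosphatase gene, was at 60.9 to 97.7 CPM and 34.0 to 56.5 CPM. The neutrophil list summed to 11.1 to 177.4 CPM in round 1 and 0.131 to 1.31 CPM in round 2, with 1 of 5 genes called. The labels do not say what a round was, and the part of these cell markers in the values of Igfbp3 and Igfbp4 was not tested.

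Igfbp5 had the lowest p among the 9 genes between SSC and BCSP and was higher in BCSP. It was at 32.1 and 23.0 CPM in WT SSC, 29.6 and 35.7 CPM in KO SSC, 65.8 and 32.2 CPM in WT BCSP, and 59.2 and 62.6 CPM in KO BCSP. Of the 4 BCSP libraries, 3 were above all SSC libraries, and WT BCSP library 2 lay inside the SSC range. The log2 fold change of SSC against BCSP was -0.86 ± 0.20, with an edgeR adjusted p of 0.633. Igfbp5 was called in 3 of 17 alternatives, over which its value ran from -1.06 to -0.64. They were no filter on low counts (-0.86), without WT BCSP library 2 (-1.04) and without both BCSP libraries of round 2 (-1.06). The last was chosen after seeing the data, and both omissions drop the BCSP library that lay inside the SSC range. With the round as a block Igfbp5 was not called. Of the osteoblast list, Col1a1, a type I collagen gene that fibrous cells also express, was at 1551 to 1944 CPM in SSC and 2166 to 2867 CPM in BCSP and made up most of the list's sum (1658 to 2020 CPM in SSC, 2322 to 3003 CPM in BCSP). The list as a whole did not follow it: the log2 fold changes of SSC against BCSP were above 0 for 3 of its 5 genes (Sp7 0.49, Alpl 0.40 and Bglap 0.11), with a median of 0.11 and no gene called. The part of these transcripts in the level of Igfbp5 was not tested.

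The other binding proteins gave no call in any comparison. Igfbp2 rested on 34 to 179 counts a library and was at 0.260 and 0.494 CPM in WT SSC, 1.05 and 0.707 CPM in KO SSC, 0.682 and 1.25 CPM in WT BCSP, and 1.26 and 1.05 CPM in KO BCSP. Both WT SSC libraries were below the other 6. In SSC its log2 fold change of KO against WT was 1.22 ± 0.62, the largest of the 9 genes there, with an edgeR adjusted p of 1. Igfbp6 was at 0.918 to 2.15 CPM over the 8 libraries, with no order by group. Igfbp7 had the smallest spread of the 9 genes, at 230.1 to 350.7 CPM, with log2 fold changes of -0.05 ± 0.17 for KO against WT and -0.15 ± 0.17 for SSC against BCSP.

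Between SSC and BCSP, 5 of the 9 genes (Igf1, Igfbp2, Igfbp3, Igfbp4 and Igfbp5) were higher in BCSP in 4 of 4 pairs of the same genotype and round, where 6.62% of tested genes were. None of the 9 was lower in 4 of 4, as were 7.4% of tested genes. The pair ratios were 1.20 to 2.63 for Igfbp2, 1.11 to 1.99 for Igfbp4 and 1.40 to 2.05 for Igfbp5. The edgeR test called 0 of the 9 and 0.00451% of all tested genes, which is 1 gene, Eng (2 genes with the round as a block, 41 with DESeq2). At an unadjusted p under 0.05 there were 3 of the 9 genes (Igf1, Igfbp3 and Igfbp5) and 822 of all tested, and DESeq2 and limma-voom also called 0 of the 9. The median log2 fold change of SSC against BCSP was -0.51 over the 9 genes and 0.01 over all tested genes.

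**Figure D3:**
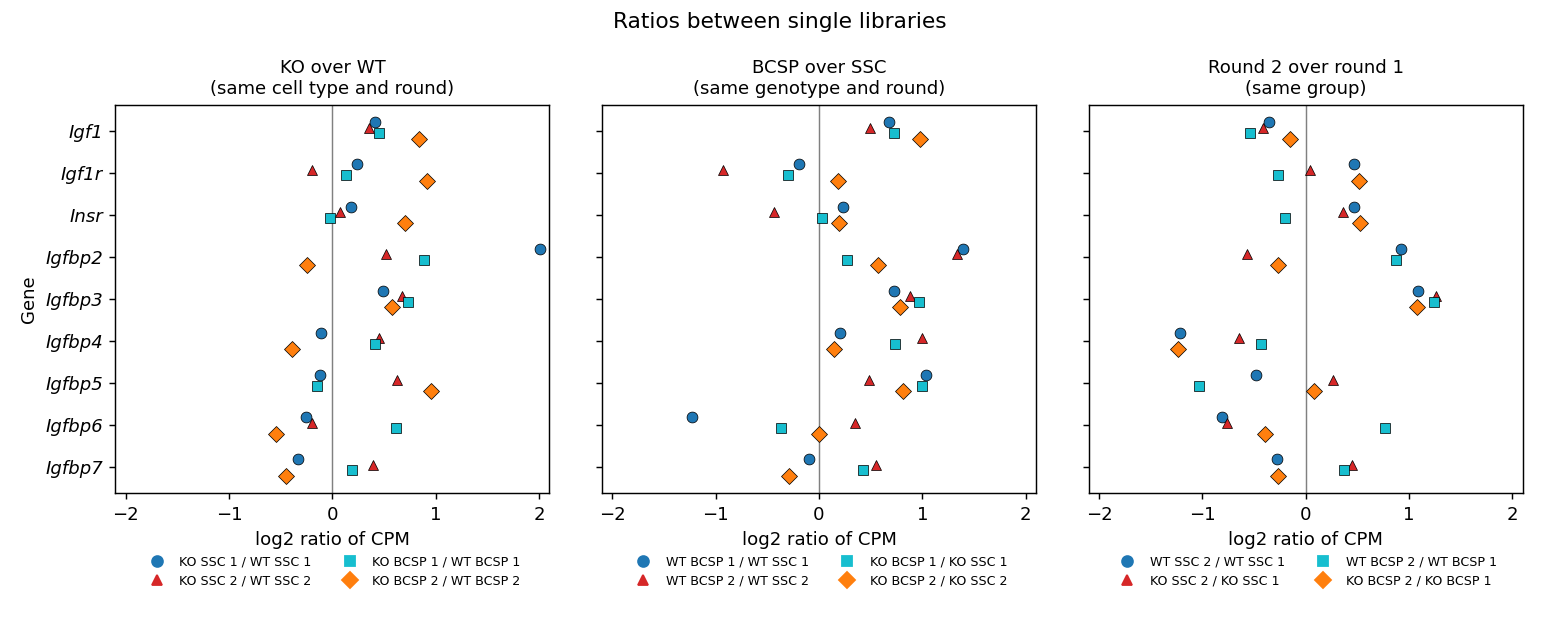
log2 ratio of CPM between single libraries for each gene: KO over WT in the same cell type and round, BCSP over SSC in the same genotype and round, and round 2 over round 1 in the same group, with 1 marker per pair as named under each panel. Igf1 and Igfbp3 lie right of 0 in all 4 pairs of the first panel, and 5 genes do so in the second.

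For Tet1 genotype, none of the 9 genes was called in SSC, in BCSP or over both, and the genotype effects in SSC and BCSP were not shown to differ. The edgeR test called 0.00451% of all tested genes in SSC and 0.00451% in BCSP (in each case 1 gene, Trf), and 0.0135% over both (Trf, Cd59a and Ulbp1, all lower in KO). The test of the difference between the genotype effects in SSC and BCSP called 0% of tested genes and 0 of the 9. At an unadjusted p under 0.05, 0 of the 9 genes passed in each of these 4 comparisons, against 266, 1371, 1753 and 282 of all genes in SSC, in BCSP, over both and for the difference. DESeq2 and limma-voom also called 0 of the 9 in each of the 4, while over all genes DESeq2 called 14 in SSC, 37 in BCSP, 114 over both and 2 for the difference. Igf1 and Igfbp3 were higher in KO in 4 of 4 pairs, as were 10.6% of tested genes, and none of the 9 was lower in 4 of 4, as were 9.86%. Over both cell types 7 of the 9 fold changes were above 0, with a median log2 fold change of 0.27 against 0.02 over all tested genes. The 4 Y-linked genes, which differ with the sex of the pups in a library, summed to 41.9 to 71.7 CPM in WT and 98.0 to 148.9 CPM in KO, and the part of sex in these values was not tested.

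**Figure D4:**
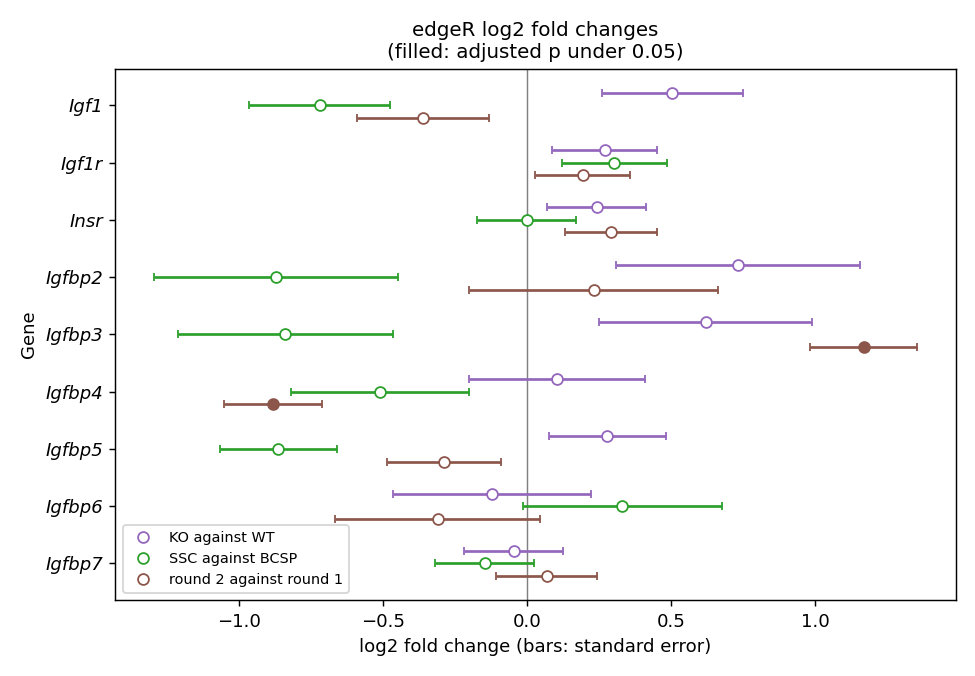
edgeR log2 fold change with its standard error for each gene, for KO against WT over both cell types, SSC against BCSP over both genotypes and round 2 against round 1, with filled circles where the adjusted p was under 0.05. Of the 27 values 2 are filled, Igfbp3 at 1.17 and Igfbp4 at -0.88 between rounds.

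Among the 9 genes themselves, the levels of Igf1 and Igfbp5 ran most nearly together over the 8 libraries (Pearson r of log2 CPM 0.89), followed by Igf1r and Insr (0.78). The receptor Igf1r and Igfbp7 ran most nearly opposite (-0.70). These are descriptions over 8 libraries that share groups, rounds and, for the receptors, the length trend. Against all other genes of at least 5 CPM, the closest to Igf1 were Ace, the angiotensin-converting enzyme gene (0.95), Ltbp1, a TGF-beta binding protein gene (0.95), and Erap1 (0.94). For Igfbp5 they were Col5a2, a fibrillar collagen gene (0.96), Tmem175 (0.95) and Arhgef28 (0.95). Igfbp4 was closest to Fbln5, an elastic fibre gene (0.97), Cpz (0.96) and Avpr1a (0.96). For Igfbp3 they were Cmklr1 (0.997), Stx6 (0.98) and Hbegf (0.97), and 121 of 9522 genes exceeded 0.9. Insr had the most such neighbours, 262 of 9522, led by Trio (0.99), Setbp1 and Btaf1, and Igf1r had 66, led by Rai1 (0.97), Cabin1 and Helz. Igfbp2 was closest to Tfdp2, Ptgs1 and Stk32b, Igfbp6 to Pygo2, Eml2 and Scamp5, and Igfbp7 to Gla, Fbxw4 and Ring1, with 15, 14 and 8 genes above 0.9.

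The rest of the pathway was taken from a list of 65 other genes, of which 60 were tested. The 5 others were at or near 0: the insulin genes Ins1 and Ins2 had no count in any library, and Insrr, Igfbp1 and Igfbpl1 did not pass the filter. Per exon length the highest of the list were Socs3, a feedback inhibitor of cytokine signalling, at 313.6 CPM per kb, and the fetal ligand gene Igf2 at 101.0 CPM per kb. They were followed by Grb10, an adaptor that restrains insulin and IGF1 receptors (74.3), the IGF2 clearance receptor gene Igf2r (64.3), the protease gene Htra1 (53.3) and Akt1 (51.3). Of the IGF ligand genes, Igf2 was far above Igf1, at 73.2 to 145.4 CPM per kb over the 8 libraries against 0.178 to 0.496 CPM per kb.

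None of the 60 genes was called in any of the 6 comparisons by edgeR. At an unadjusted edgeR p under 0.05 there were 0 for genotype in SSC, 3 in BCSP, 4 over both and 0 for the difference. For cell type there were 7 and for round 11. The shares of all tested genes at that p were 1.2%, 6.19%, 7.91%, 1.27%, 3.71% and 11.4%, in the same order. Over both cell types 36 of the 60 were above 0 in KO and 24 below, with a median log2 fold change of 0.04 against 0.02 over all tested genes. The genes with the lowest p there were forkhead factor genes that AKT restrains: Foxo3 at 0.50 ± 0.17 and Foxo1 at 0.43 ± 0.16, and on the other side Foxo4 at -0.65 ± 0.16, with edgeR adjusted p of 0.611, 0.614 and 0.413. Grb14, another receptor-binding adaptor, was at -0.46 ± 0.19. Between cell types, 34 of the 60 were higher in SSC and 26 lower, and 51.8% of all tested genes were higher. Kazald1, an IGF binding protein-related gene, was at -0.78 ± 0.18 and Htra1 at -0.55 ± 0.20 (higher in BCSP), while Pappa2, which encodes a protease of binding proteins, was at 0.58 ± 0.16 and Foxo4 at 0.59 ± 0.16 (edgeR adjusted p of 0.623, 1, 0.884 and 0.837). Between rounds 38 were higher in round 2 and 22 lower, and 50.1% of all tested genes were higher. Those with the lowest p on each side were Irs2 at 0.51 ± 0.15, Socs2 at 0.48 ± 0.14, Pik3cb at -0.62 ± 0.22 and Htra1 at -0.43 ± 0.17 (edgeR adjusted p of 0.117, 0.130, 0.257 and 0.337). The lowest p in SSC alone belonged to Foxo4 at -0.51 ± 0.24 and Grb14 at -0.53 ± 0.29, and in BCSP alone to Foxo4 at -0.78 ± 0.24, Foxo1 at 0.60 ± 0.23 and Foxo3 at 0.62 ± 0.26, none called by edgeR.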

How the data were processed

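Bulk RNA-seq of 8 libraries (150-base reads, per the labels) was analysed from 1 table of counts per gene, deposited by the authors with no normalization. The submitters' processing notes name STAR, featureCounts, DESeq2 and the build mm10, without versions or roles. The annotation and the strand of counting are not given in the sources used here, so reads of a gene and its antisense partner cannot be told apart. Positions and exon lengths came from GENCODE M21, which matched 55144 of 55471 entries without the version suffix, and promoter windows from RefSeq GRCm38.p6.

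The counts were fitted with edgeR 4.0.16 (R 4.3.3), quasi-likelihood with robust dispersion, TMM scaling and filterByExpr (minimum count 10, minimum total 15). Benjamini-Hochberg adjustment covered all 22153 tested genes at a threshold of 0.05. Genotype in SSC, in BCSP and their difference came from 1 mean per group (4 residual degrees of freedom). Genotype and cell type over all 8 libraries came from an additive model (5), and round from group plus round (3). These models treat the SSC and BCSP libraries as independent. The code was tested on simulated data. Common biological variation was 0.525, and chi-square per degree of freedom between the 2 libraries of a group was 129 to 306, far above sampling noise.

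The cell type values given come from the fit without a round term. The fit with the round as a block is an alternative, given beside a result where it moved a count by over 1.5 times. For cell type the round numbers pair the libraries by the correlation rule (over 0.1 in every pair of groups compared): the round 2 minus round 1 deviations of SSC and BCSP correlated at 0.127 in WT and 0.657 in KO, over 12482 genes. The pairing comes from the numbers in the titles. Named genes were the 9 members, and from the pathway list all called genes, the 6 highest per exon length and the 2 lowest p on each side in each comparison. For likeness they were the 3 highest Pearson correlations of log2 CPM (prior count 2) among tested genes of at least 5 CPM. The members and lists were chosen with earlier results of these data known. Alternatives were other scalings, no filter, DESeq2 1.42.0, limma-voom (limma 3.58.1), an exon length offset, the round as a block and leaving out libraries.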

Additional observations from a re-analysis of the deposited data

How the results depend on the processing

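Of 918 recomputed values of single members, 808 kept their direction and side of the threshold, 100 turned direction, 8 gained a call and 2 lost one. Of 204 recomputed counts of calls, 48 moved by over 1.5 times. Igfbp3 between rounds was called in all 15 alternatives that could be run (log2 fold change 1.12 to 1.19, edgeR, DESeq2 or limma-voom adjusted p of 8.18e-08 to 0.00829), and Igfbp4 in 13 of 15 (-1.04 to -0.77). For round, leaving out library 1 or library 2 of a group removes that whole group from the estimate. Such alternatives were not independent of each other. Every other scaling kept the median of all genes within 0.1 of 0 on the log2 scale. The values that turned direction were mostly near 0, and where no construction shows it the cause was not tested. Depth limits Igfbp2 most, at 34 to 179 counts a library.

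For genotype, the round deviations of WT and KO correlated at 0.576 in SSC but at -0.0531 in BCSP, so the numbers were not taken to pair the libraries over both cell types, although the other 5 of the 6 pairs of groups correlated over 0.1. In SSC alone the correlation was over 0.1, but the fit given for SSC has no round term, and the count with the block follows. With the replicate block, genes called were 2 in SSC, 3 in BCSP, 2 for the difference between cell types, 28 over both and 2 for cell type, and Igfbp4 turned to 0.16 for the difference. No call of a member changed under the block. No paired analysis was possible for the round comparison because the round is its tested term.

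With RLE scaling, Igf1r in SSC was -0.0089 (KO against WT), Igfbp6 in BCSP 0.032 and Insr between cell types 0.00071. With upper-quartile scaling, Igfbp6 in BCSP was 0.072 and Insr between cell types 0.0020, and 1 gene was called for genotype over both. DESeq2 gave Igf1r in SSC -0.0090, Igfbp6 in BCSP 0.032 and Insr between cell types 0.00065. It called 14 genes for genotype in SSC, 37 in BCSP, 2 for the difference, 114 over both, 41 for cell type and 955 for round. With limma-voom, Igfbp3 and Igfbp4 were 0.0036 and 0.16 for the difference and Igfbp6 in BCSP 0.0033, and 1 gene was called over both. With no filter on low counts, Insr between cell types was 0.0043 and 1 member, Igfbp5, was called there. Genes called without the filter were 4 in SSC, 38 in BCSP, 234 over both, 66 for cell type and 861 for round. With only the 4 libraries of a cell type, Igf1r in SSC was -0.0034 and Igfbp6 in BCSP 0.0042, and 0 genes were called in SSC.

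With the exon length offset, Igf1r in SSC was -0.081, Igfbp6 0.31 in BCSP and 0.086 over both, and Igfbp7 -0.032 for the difference, 0.15 in BCSP and 0.14 over both, with 733 genes called for round. With the exon length offset and replicate block together, Igf1r in SSC was -0.072, Igfbp4 0.10 for the difference, Igfbp6 0.29 in BCSP and 0.070 over both, and Igfbp7 -0.037 for the difference, 0.15 in BCSP and 0.13 over both. That fit called 3 genes in SSC, 19 in BCSP, 2 for the difference, 84 over both and 39 for cell type. Without both BCSP libraries of round 2, an alternative chosen after seeing the data, Igf1r in SSC was -0.0012. Igfbp5 was 0.39 for the difference and -0.15 in BCSP, and Igfbp6 0.62 in BCSP and 0.044 over both. Igfbp7 was -0.15 for the difference, 0.20 in BCSP and 0.093 over both. Insr was 0.096 between cell types, 0.14 for the difference and -0.020 in BCSP. There 11 genes were called over both, 36 for cell type with 1 member (Igfbp5), and 1856 for round.

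Leaving out 1 library at a time, a lone library of a group is assumed to vary like the other groups. For genotype in SSC, log2 fold changes ran from -0.22 to 0.26 for Igf1r, -0.097 to 0.38 for Insr, -0.17 to 1.26 for Igfbp3, -0.40 to 0.82 for Igfbp4, -0.67 to 0.23 for Igfbp6 and -0.22 to 0.24 for Igfbp7. In BCSP they ran from -0.11 to 0.76 for Igfbp2, -0.61 to 0.65 for Igfbp4, -0.11 to 0.92 for Igfbp5, -0.34 to 0.43 for Igfbp6 and -0.31 to 0.066 for Igfbp7. For the difference they ran from -0.54 to 0.0062 for Igf1, -0.51 to 0.016 for Insr, -0.83 to 0.64 for Igfbp3, -0.57 to 0.69 for Igfbp4, -0.68 to 0.35 for Igfbp5, -0.67 to 0.23 for Igfbp6 and -0.11 to 0.37 for Igfbp7. Over both they ran from -0.19 to 0.39 for Igfbp4, -0.28 to 0.087 for Igfbp6 and -0.15 to 0.051 for Igfbp7. Insr between cell types ran from -0.12 to 0.15 and Igfbp7 between rounds from -0.077 to 0.18. Genes called ran from 1 to 4 for genotype in SSC, 1 to 2 in BCSP, 1 to 12 over both, 1 to 3 for cell type and 275 to 3909 for round. Members called ran from 0 to 1 for cell type and 1 to 4 for round.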
